A study of Mus musculus with 1536 samples.

Results

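Piezo and canonical TRP channels are cation channels of the plasma membrane, and 7 of their genes, Piezo1, Piezo2, Trpc1, Trpc4, Trpc5, Trpc6 and Trpc7, were followed here in single serotonin neurons. They are 7 of the 53263 genes in the deposited table and were chosen by name. The cells came from C57BL/6J mice of 40 to 45 days that carried Cre under the serotonin transporter gene (Sert, Slc6a4) and the Ai14 reporter, a genotype the labels write as Sert-tdTomato-Cre cross with Ai14. Both groups share this genotype, and the reporter marks any cell that made Sert at any time in its life. Sorted tdTomato-positive cells were taken from 2 dissections: the principal dorsal raphe (pDR; 290 cells, 5 plates) and a wider one labelled All DR (all_DR below; 709 cells, 11 plates), which the series' design describes as holding the whole median raphe (MR) and dorsal raphe (DR). No label ties a cell to an animal, so each dissection is 1 sample here, no p-value was computed, and the spread between plates is given instead. In the labels these are 480 and 1056 cells, of which 999 are in the table.

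Piezo1 and Piezo2 form channels that open when the membrane is stretched, and Piezo2 is known for touch and body-position sense in sensory neurons. The canonical TRP (TRPC) channels are opened downstream of receptors that couple to Gq and phospholipase C. Trpc4 and Trpc5 belong to one subfamily, Trpc6 and Trpc7 to another, and Trpc1 joins other subunits in mixed channels.

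The cells held the defining genes of serotonin neurons: Tph2 and Fev had a read in 999 of 999 cells and Slc6a4 in 997. Reads per cell ranged from 96834 to 2780443, with a median of 755926 in pDR and 869546 in all_DR. Of 8 endothelial genes, Cdh5, Kdr and Tie1 had no read in any of the 999 cells, and Cldn5, Flt1 and Pecam1 had one in 2, 7 and 8. A zero of these genes in a subset of cells therefore says little about that subset. Cldn5 had no read in any pDR cell. Ly6c1 had one in 13.4% of pDR and 2.54% of all_DR cells (log2 ratio 1.10), and the list's summed mean was 2.39 and 1.07 CPM. Of 999 cells, 4 had over 1000 CPM (reads of the gene scaled to a fixed total per cell) of summed endothelial, pericyte, microglia, oligodendrocyte and ependymal markers. Values below are CPM, and a cell is called positive from 1 read. Intervals are exact (Clopper-Pearson) 95% intervals, which cover counting error only, since amplified reads without molecular tags are not independent molecules. For a share of 0, the limit given is instead 3 over the number of cells, which lies slightly under the exact upper limit.

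The promoter letters of 4 members are shown here because these genes mark the ends of the patterns described below: Trpc1 and Trpc7 were the widely detected members, and Trpc5 and Trpc6 were the 2 members without a read in Zeb2-positive cells. Each line runs 5′ to 3′ on the strand of the gene, 250 bases before to 50 bases after the RefSeq start (build GRCm38.p6; Trpc1 chr9:95750299-95750598 minus, Trpc7 chr13:56895740-56896039 minus, Trpc5 chrX:144688131-144688430 minus, Trpc6 chr9:8543892-8544191 plus). Capitals mark CACCTG or its reverse complement CAGGTG, the E-box letters that Zeb factors are known to bind.
Trpc1: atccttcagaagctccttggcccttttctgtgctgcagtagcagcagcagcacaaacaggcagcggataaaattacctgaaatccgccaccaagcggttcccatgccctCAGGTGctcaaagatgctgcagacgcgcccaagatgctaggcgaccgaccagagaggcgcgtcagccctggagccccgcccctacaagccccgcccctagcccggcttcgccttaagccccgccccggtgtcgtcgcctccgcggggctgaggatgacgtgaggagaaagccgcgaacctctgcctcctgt
Trpc7: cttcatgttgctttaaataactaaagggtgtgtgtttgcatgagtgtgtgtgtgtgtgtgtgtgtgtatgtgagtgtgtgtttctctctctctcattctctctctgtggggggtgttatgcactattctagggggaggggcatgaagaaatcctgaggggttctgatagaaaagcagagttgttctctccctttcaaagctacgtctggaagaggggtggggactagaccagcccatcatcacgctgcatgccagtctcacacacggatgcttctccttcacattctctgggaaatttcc
Trpc5: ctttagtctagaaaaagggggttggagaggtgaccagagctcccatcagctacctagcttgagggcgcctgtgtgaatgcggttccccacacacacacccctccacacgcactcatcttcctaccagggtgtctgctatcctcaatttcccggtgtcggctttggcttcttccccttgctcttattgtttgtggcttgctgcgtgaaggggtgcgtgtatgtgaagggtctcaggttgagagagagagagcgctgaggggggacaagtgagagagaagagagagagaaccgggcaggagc
Trpc6: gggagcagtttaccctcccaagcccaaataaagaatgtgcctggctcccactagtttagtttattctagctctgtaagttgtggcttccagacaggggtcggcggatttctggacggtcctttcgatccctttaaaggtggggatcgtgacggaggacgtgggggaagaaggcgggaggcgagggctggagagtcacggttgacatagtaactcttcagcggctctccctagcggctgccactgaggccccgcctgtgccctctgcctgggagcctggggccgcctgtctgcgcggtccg
Trpc1 held the motif 1 time, at position -141 from the start, and the windows of Trpc7, Trpc5 and Trpc6 did not hold these letters. Of all 32851 promoter windows of 300 bases in the table, 20.2% held it on either strand, and no other motif was searched. The Trpc7 window held 3 CpG and the Trpc1 window 22, against a median of 7 over all windows. RefSeq windows matched 6 of the 7 members, and Piezo2 was not among them. The windows of Piezo1 and Trpc4, which are not printed, did not hold the motif either. Whether Zeb2 acts on any of these genes was not tested.

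All 7 members had a read in at least 3 cells, and they fell far apart. Trpc7 (chromosome 13, 56773113 to 56895993, minus strand, GRCm38) was found in 855 of 999 cells (85.6%, 95% interval 83.3 to 87.7) and Trpc1 (chromosome 9, 95705082 to 95750375, minus) in 582 cells (58.3%, 55.1 to 61.3). Piezo2 (chromosome 18, 63010213 to 63387183, minus) followed with 131 cells (13.1%, 11.1 to 15.4). Trpc6 (chromosome 9, 8544142 to 8680741, plus) was found in 57 cells (5.71%), Trpc5 (chromosome X, 144381671 to 144688180, minus) in 51 (5.11%), Piezo1 (chromosome 8, 122481698 to 122551329, minus) in 35 (3.50%) and Trpc4 (chromosome 3, 54156035 to 54318471, plus) in 20 (2.00%). The intervals of Trpc6, 4.35 to 7.33, of Trpc5, 3.82 to 6.66, and of Piezo1, 2.45 to 4.84, overlap between neighbours, and so do those of Piezo1 and Trpc4, 1.23 to 3.08. Exonic bases of Piezo1 overlap those of Ctu2 on the other strand, and the counting did not use strand, so the Piezo1 values are uncertain.

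**Figure D1:**
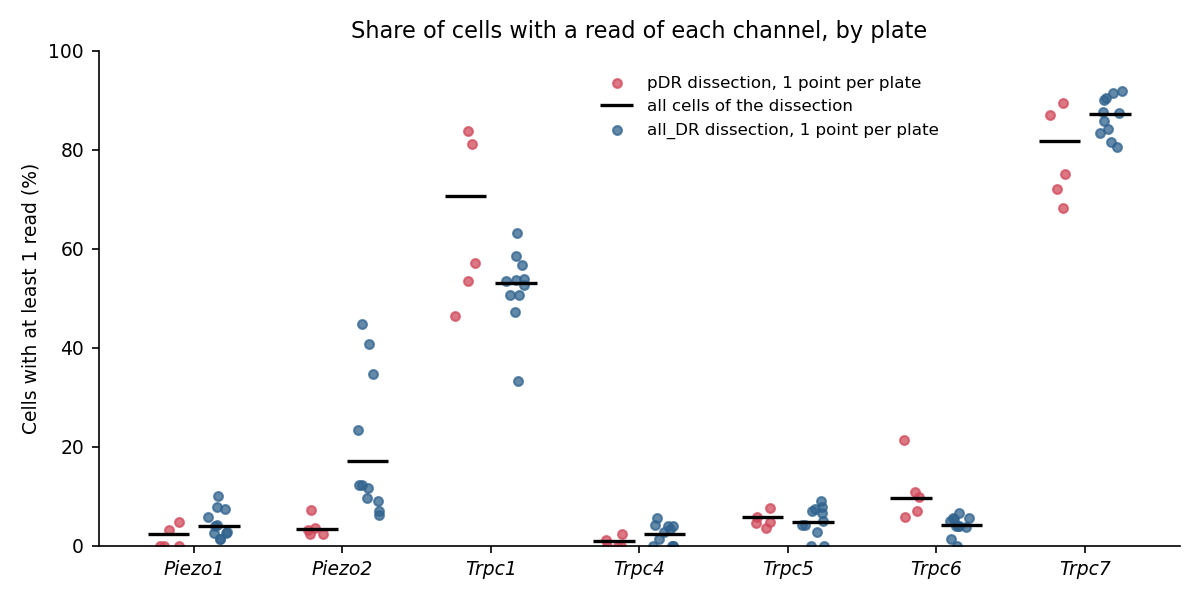
Share of cells with at least 1 read of each channel (y axis, percent) in each plate of the pDR (red) and all_DR (blue) dissections, with a black bar for all cells of the dissection. Trpc7 lay between 68.3% and 91.9% on the 16 plates, and Piezo2 ran from 6.25% to 44.7% on the all_DR plates. Trpc1 and Trpc7 both had higher shares on pDR plates 12 and 13 than on the other pDR plates.

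Per kilobase of exon, which allows levels of different genes to be compared, Trpc7 had the highest mean level of the 7 members, at 6.97 CPM per kb over all cells. Trpc1 stood at 0.885 CPM per kb, Piezo2 at 0.437, Trpc6 at 0.207, Trpc5 at 0.111, Trpc4 at 0.0521 and Piezo1 at 0.0179. Trpc2 was listed at 0 in all 999 cells, and its exons overlap those of Xndc1 and Xntrpc. Other TRP genes, named after their values were seen, reached higher mean levels per length: Trpv2, a channel of the vanilloid group, stood at 17.8 CPM per kb with a read in 969 cells, and Mcoln1, a channel of lysosomes, at 9.96 with a read in 985 cells.

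Among the cells that held a read, levels also differed. Trpc7 had a median of 26.5 CPM in 237 positive pDR cells and 26.8 CPM in 618 positive all_DR cells, with a highest value of 178 CPM. Trpc1 had medians of 9.67 and 7.65 CPM, and 204 of its 582 positive cells held only 1 to 4 reads. With every cell thinned to 250000 reads, which lowers a share by construction, the Trpc1 share went from 53.2% to 43.1% in all_DR, and from 70.7% to 57.1% in pDR. The Trpc7 share in all_DR was 87.2% at full depth and 85.3% when thinned.

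The scarce members were not all at the edge of detection. Trpc4, in 20 cells, had a median of 16.3 CPM and 11 reads per positive cell, and 16 of those cells held at least 5 reads. Trpc6 had a median of 13.4 CPM, and 46 of its 57 positive cells held at least 5 reads. Trpc5 had a median of 5.60 CPM, and 17 of its 51 positive cells held a single read. Piezo1 was the lowest, with a median of 3.18 CPM, and 25 of its 35 positive cells held 1 to 4 reads. Positive cells of Piezo1 were deeper, with a median of 958298 reads against 821148 in cells without it, and those of Trpc5 were shallower, with 713109 against 838098.

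**Figure D2:**
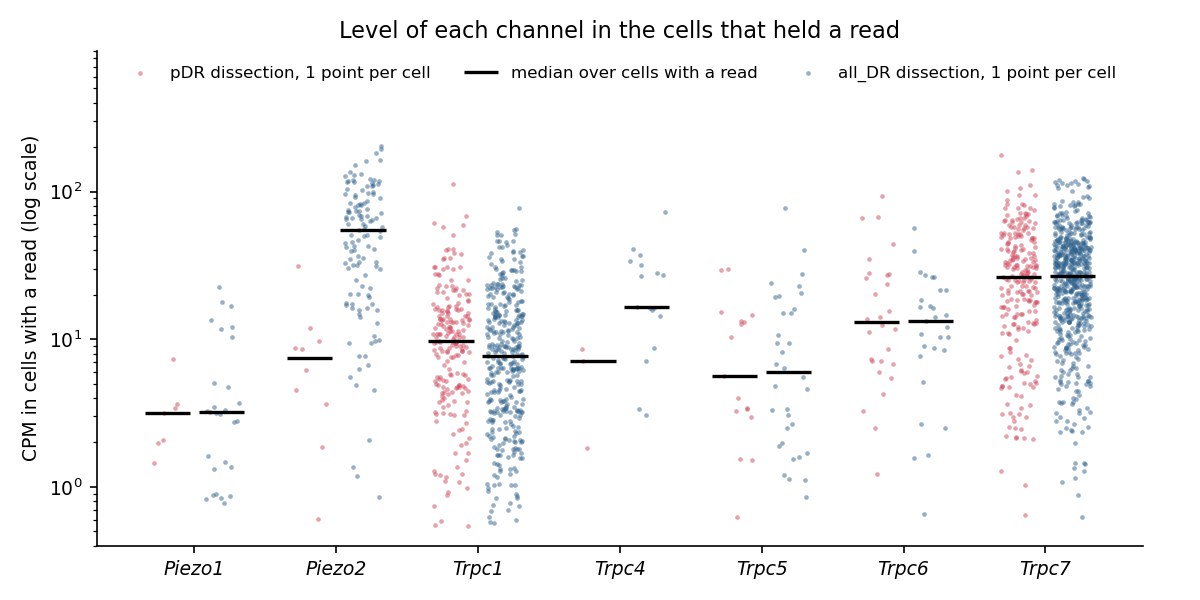
CPM on a log scale (y axis) in each cell that held a read of the channel, by dissection, with a black bar at the median. Positive cells of Piezo2 had a median of 55.4 CPM in all_DR and 7.42 CPM in pDR, whereas the Trpc7 medians were 26.8 and 26.5 CPM.

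Between the dissections, Piezo2 was the only member past a log2 ratio of 1. It had a read in 10 of 290 pDR cells (3.45%, 1.67 to 6.25) and in 121 of 709 all_DR cells (17.1%, 14.4 to 20.0), with means of 0.301 and 10.4 CPM and a log2 ratio of pDR over all_DR of -3.14 on the mean CPM plus 1 scale. The 5 pDR plates ran from 2.33% to 7.14% positive cells, and the 11 all_DR plates from 6.25% to 44.7%, so the plates overlapped in share. Plate means of Piezo2 did not overlap, with at most 1.43 CPM on a pDR plate and at least 2.51 CPM on an all_DR plate. Of 25522 genes tested, 0.901% were past a log2 ratio of 1 in this direction and 1.54% in the other. Among cells without a Zeb2 read the Piezo2 difference was not seen: there the log2 ratio was 0.08. Positive cells were both fewer and lower in pDR, with a median of 7.42 CPM against 55.4 CPM in all_DR.

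Trpc1 was found in 70.7% of pDR cells (65.1 to 75.9) and 53.2% of all_DR cells (49.4 to 56.9), with means of 9.28 and 6.22 CPM and a log2 ratio of 0.51. This gap rested on 2 plates. On plates 12 and 13 the share was 83.9% and 81.2%, and on the other pDR plates, 25, 39 and 40, it was 53.5%, 57.1% and 46.3%, within the 33.3% to 63.2% of the all_DR plates. Without plates 12 and 13 the log2 ratio was -0.01. Median depth was 713109 and 632724 reads on plates 12 and 13 and between 927186 and 1536580 reads on the other 3. The plates with more positive cells were thus the shallower ones. Median genes per cell were 9983 on plates 12 and 13 together and 9133 on the others. The split was not particular to Trpc1. Trpc7 was found in 87.1% and 89.4% of cells on plates 12 and 13. On plates 25, 39 and 40 its share was 72.1%, 75.0% and 68.3%. Its means were 22.7 and 26.6 CPM against 26.4, 30.6 and 31.1 CPM. Piezo1 and Trpc4 had a read in pDR only on plates 12 and 13. Plate, animal and position within the pDR cannot be told apart here.

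Trpc6 was found in 28 of 290 pDR cells (9.66%, 6.51 to 13.7) and 29 of 709 all_DR cells (4.09%, 2.76 to 5.82), with means of 2.06 and 0.635 CPM. The log2 ratio was 0.90, under the threshold, and passed it at 1.01 without plates 12 and 13, at 1.11 without plate 13 alone and at 1.02 without plate 25. The pDR plates ran from 5.88% to 21.4% and the all_DR plates from 0 to 6.67%, so they overlapped. Gad1 or Gad2, genes of GABA synthesis, had a read in 63.1% of pDR and 23.1% of all_DR cells. In cells without either, the Trpc6 share was 2.80% in pDR and 2.75% in all_DR, with means of 1.51 and 0.377 CPM. In cells with one, the share was 13.7% and 8.54%, with means of 2.38 and 1.49 CPM. The part of this class in the Trpc6 gap was not tested. Trpc7 had a log2 ratio of -0.05, Trpc5 of 0.02, Piezo1 of -0.17 and Trpc4 of -0.56. The shares of Trpc5 were 5.86% in pDR and 4.80% in all_DR. The Piezo1 share was 2.41% in pDR and 3.95% in all_DR, and that of Trpc4 1.03% and 2.40%.

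Zeb2, a zinc-finger transcription factor, had a read in 147 of 709 all_DR cells and in 3 of 290 pDR cells, so its relation to the channels was read within all_DR. Piezo2 was found in 106 of the 147 Zeb2-positive cells (72.1%, 64.1 to 79.2) and in 15 of the 562 others (2.67%). Its mean was 49.5 against 0.230 CPM, a log2 ratio of 5.36, and it was higher in Zeb2-positive cells on 11 of 11 plates. It was the only one of 7 members past a log2 ratio of 1, where 1.66% of the genes tested were past it upward and 2.9% downward. The share of Zeb2-positive cells itself ranged from 10.0% to 57.9% of a plate, and it was highest on plates 48, 56 and 55, which also had the highest shares of Piezo2-positive cells. Without these 3 plates the log2 ratio was 5.12.

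The few Piezo2-positive cells outside the Zeb2 class held low levels. In the 106 cells with both genes, Piezo2 ran from 6.30 to 202 CPM with a median of 64.7 CPM, and 103 held at least 5 reads. In the 15 all_DR cells with Piezo2 and no Zeb2 read, the highest value was 20.2 CPM, the median 6.75 CPM, and 6 held at least 5 reads. In the 10 positive pDR cells the highest value was 31.2 CPM and the median 7.42 CPM, and none of the 3 Zeb2-positive pDR cells held a Piezo2 read. The sets of cells with and without Zeb2 overlapped between 6.30 and 31.2 CPM.

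**Figure D3:**
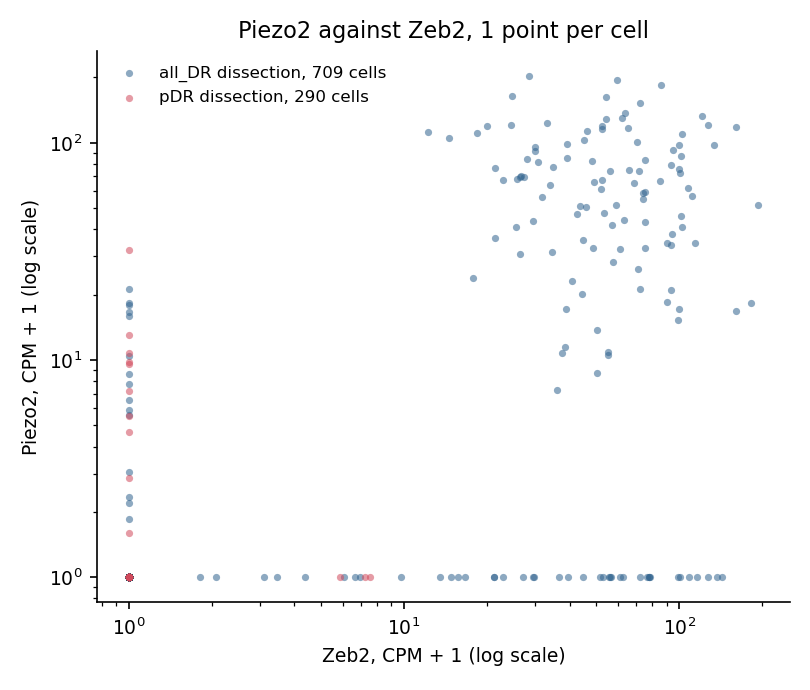
Piezo2 (y axis) against Zeb2 (x axis) in each of 999 cells, both as CPM plus 1 on log scales, all_DR cells in blue and pDR cells in red. Cells with both genes form 1 cloud of 106 all_DR cells, and Zeb2-positive cells without a Piezo2 read lie along the lower edge.

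Piezo1 was also more often found in Zeb2-positive cells, in 18 of 147 (12.2%, 7.42 to 18.7) against 10 of 562 (1.78%, 0.857 to 3.25). Its means were 0.857 and 0.0509 CPM, and the log2 ratio of 0.82 did not pass the threshold, although the mean was higher on 10 of 11 plates. Across all cells, 17 of the 131 Piezo2-positive cells held a Piezo1 read (13.0%), against 18 of the 868 others (2.07%). None of the 35 Piezo1-positive cells held a read of the endothelial genes Cldn5, Pecam1, Cdh5, Flt1, Kdr or Tie1. Each of these genes had a read in at most 8 of all 999 cells, so this zero does not set Piezo1-positive cells apart. The other 2 genes of that list, Ly6c1 and Esam, were detected, and the list summed to a mean of 1.72 CPM (highest 19.6) against 1.45 CPM in cells without Piezo1. Their summed microglia markers were at a median of 0 CPM with a highest value of 98.9 CPM.

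Trpc5 and Trpc6 had no read in the 147 Zeb2-positive cells, which allows a share of up to 2.04% for each. Among the 562 other all_DR cells, Trpc5 was found in 34 (6.05%, 4.23 to 8.35) and Trpc6 in 29 (5.16%, 3.48 to 7.33). The mean of Trpc5 was lower in Zeb2-positive cells on 9 of 11 plates and that of Trpc6 on 10, and on the remaining plates neither set held a read. Because the means of the other cells were under 1 CPM (0.698 for Trpc5, 0.801 for Trpc6), the log2 ratios with a pseudocount of 1, -0.76 and -0.85, could not pass the threshold. Trpc1 was found in 57.8% of Zeb2-positive cells and 52.0% of the others, and Trpc7 in 87.1% and 87.2%. The log2 ratios of Trpc1 and Trpc7 were -0.03 and 0.08. Trpc4 was found in 2 Zeb2-positive cells and 15 others.

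Zeb2-positive cells were not uniform in Piezo2. The 41 without a Piezo2 read had a mean Zeb2 level of 47.5 CPM, against 62.2 CPM in the 106 with one. Trpc7 had a mean of 23.0 CPM in the 106 cells and 43.0 CPM in the 41, a log2 ratio of -0.87, and was lower on 7 of 7 plates with at least 3 cells in each set. Trpc4 was in 0 of the 106 cells, which allows up to 2.83%, and in 2 of the 41, and its log2 ratio of -1.28 rested on those 2 cells. Trpc1 was found in 58.5% and 56.1%. Slc17a8, the vesicular glutamate transporter Vglut3, differed more, with means of 33.1 and 236 CPM and a log2 ratio of -2.80. Gad2, an enzyme of GABA synthesis, went the other way, with means of 35.7 and 12.8 CPM and a log2 ratio of 1.41. Oxtr, the oxytocin receptor, had a read in 100% of the 106 cells and 31.7% of the 41 (log2 ratio 2.53). Tacr3, the neurokinin B receptor, had a mean of 0.657 CPM in the 106 cells and 51.8 CPM in the 41, and Adra1b, an adrenergic receptor, 2.39 and 33.5 CPM. Of 19 measured Gq-coupled receptors, 1 was higher and 8 were lower in the 106 cells. Of 7 oligodendrocyte genes, 6 were lower in mean, with summed means of 13.9 and 338 CPM and medians of 1.52 and 1.98 CPM. The highest summed values in a cell were 153 and 13109 CPM, so the mean of the 41 rested mostly on the highest cell. The part of the oligodendrocyte genes in these differences was not tested. Of all genes tested, 1.78% were past a log2 ratio of 1 upward and 4% downward in this split, which was chosen after the values were seen and was made by Piezo2 itself.

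Other genes of the same pathways also stood apart between Zeb2-positive and other all_DR cells. Among TRP genes outside the 7, Trpm3, a heat- and steroid-sensitive channel, had a log2 ratio of -1.18 and Trpv6, a calcium channel, 1.07. Pkd2l1, at 1.74, had the higher mean although a read was found in only 0.680% of Zeb2-positive cells, a single cell, and 5.69% of the others. Of 9 genes of Gq and phospholipase C, 3 were higher and none lower: Plcb3 (log2 ratio 2.54), Plcb4 (1.96) and Gna14 (1.95). Of 19 measured Gq-coupled receptors, 5 were higher and 6 lower. The muscarinic receptor Chrm1 (3.24) and Oxtr (2.73) were higher, and the orexin receptors Hcrtr2 (-3.01) and Hcrtr1 (-2.91) were lower. None of 12 partners of TRPC channels and store-operated entry genes passed the threshold. Of 10 other mechanically gated channels, the acid-sensing channel Asic2 was lower (-2.65), and Tmem150c, known to slow the closing of Piezo channels, was the 1 of 2 measured Piezo regulators that was lower (-1.76).

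Among the marker lists of other cells, 4 of 7 oligodendrocyte genes were past a log2 ratio of 1 upward in Zeb2-positive cells, with summed levels from 0 to 13109 CPM against 0 to 16692 CPM in the others and medians of 1.94 and 0 CPM. Microglia markers, relevant because microglia also make Zeb2, had a summed level of 0 to 98.9 CPM against 0 to 53.6 CPM, medians of 0 in both, and none of the 6 measured genes of 8 past the threshold. Cldn5, Cdh5, Flt1, Kdr and Tie1 had no read in Zeb2-positive cells, but each had one in at most 7 of all 999 cells. The summed astrocyte list had medians of 269 and 820 CPM, and its leading gene, Aldoc, had a read in 992 of 999 cells, whereas Gfap had one in 21 and Aqp4 in 38. The part of these lists in the results was not tested. With the 4 cells over 1000 CPM of such markers left out, the Piezo2 log2 ratio was 5.37.

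Irx2, a homeobox transcription factor, had a read in 154 of 709 all_DR cells, only 5 of which also held a Zeb2 read. Piezo2 was found in 2 of the 154 cells (1.30%, 0.158 to 4.61) and in 119 of the 555 others (21.4%), with means of 0.105 and 13.3 CPM and a log2 ratio of -3.70 (lower on 11 of 11 plates). It was the 1 member of 7 past the threshold, where 0.976% of the genes tested were past it downward and 0.564% upward. None of the 106 all_DR cells with both Zeb2 and Piezo2 held an Irx2 read, so they make up 106 of the 119. The Irx2 result for Piezo2 is therefore not separate from that for Zeb2, and it was not repeated among cells without a Zeb2 read. Piezo1 was found in 1 Irx2-positive cell (0.649%) and 27 others (4.86%), with a log2 ratio of -0.34. Trpc5 was found in 14 of 154 (9.09%, 5.06 to 14.8) against 20 of 555 (3.60%, 2.21 to 5.51), with a higher mean on 8 of 11 plates and a log2 ratio of 0.59. Trpc1, Trpc4, Trpc6 and Trpc7 had log2 ratios between 0.05 and 0.50. Outside the 7, Gna14 (log2 ratio -2.18) and Oxtr (-2.86) were lower, and Itpr2, a receptor that releases stored calcium, was higher (1.18).

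Grik1-high cells are the highest 10% of all cells by Grik1, a kainate receptor subunit, at 15.1 CPM or more. They are a range and not a type: 42 cells lay within 1.5 times the threshold, and of the 94 in all_DR, 30 held a Zeb2 read and 37 an Irx2 read. Trpc5 was found in 15 of the 94 (16.0%, 9.22 to 25.0) and in 19 of the 615 others (3.09%, 1.87 to 4.78), with a log2 ratio of 0.90 and a higher mean on 7 of 11 plates and a lower one on 2. Trpc4 was found in 5 of 94 (5.32%, 1.75 to 12.0) and 12 of 615 (1.95%, 1.01 to 3.38). The Trpc4 means were 1.83 and 0.372 CPM, and its log2 ratio of 1.04 made it the only member of 7 past the threshold, where 0.556% of the genes tested were past it upward and 0.627% downward. That call rested on few cells and plates: the Trpc4 mean was higher on 4 plates and lower on 3, and the log2 ratio ran from 0.68 to 1.23 as plates were left out in turn, under the threshold without plate 50, 51, 52 or 67.

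Because no Zeb2-positive cell held a Trpc5 read, leaving those cells out keeps its counts and shrinks only the totals. Trpc5 was then found in 15 of 64 Grik1-high cells (23.4%, 13.8 to 35.7) and 19 of 498 others (3.82%, 2.31 to 5.89), and its log2 ratio was 1.17, with 1.22 for Trpc4. Of all genes tested, 0.991% were past a log2 ratio of 1 upward and 0.886% downward in this comparison, added after the values were seen. In the full comparison, with its background of 0.556% upward and 0.627% downward, 5 of 19 Gq-coupled receptors were higher and 1 lower in Grik1-high cells. They were led by Nmbr, the neuromedin B receptor (log2 ratio 2.98), Tacr3 (2.44) and Grm5 (1.90), a metabotropic glutamate receptor, and the lower one was Cckar (-1.99). Among marker lists, 5 of 7 oligodendrocyte genes were lower in mean (median of the list -1.25) and 2 of 7 astrocyte genes, Gja1 and Gfap, were higher. Gja1 had a read in 2.13% of Grik1-high cells and 4.72% of the others, with a higher mean on 2 of 11 plates. Gfap had one in 7.45% and 1.46%, with a higher mean on 6. Summed oligodendrocyte markers had medians of 0 CPM in both sets and highest values of 255 and 16692 CPM. The part of these genes in the results was not tested. The remaining members, Piezo1, Piezo2, Trpc1, Trpc6 and Trpc7, had log2 ratios between 0.11 and 0.63.

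**Figure D4:**
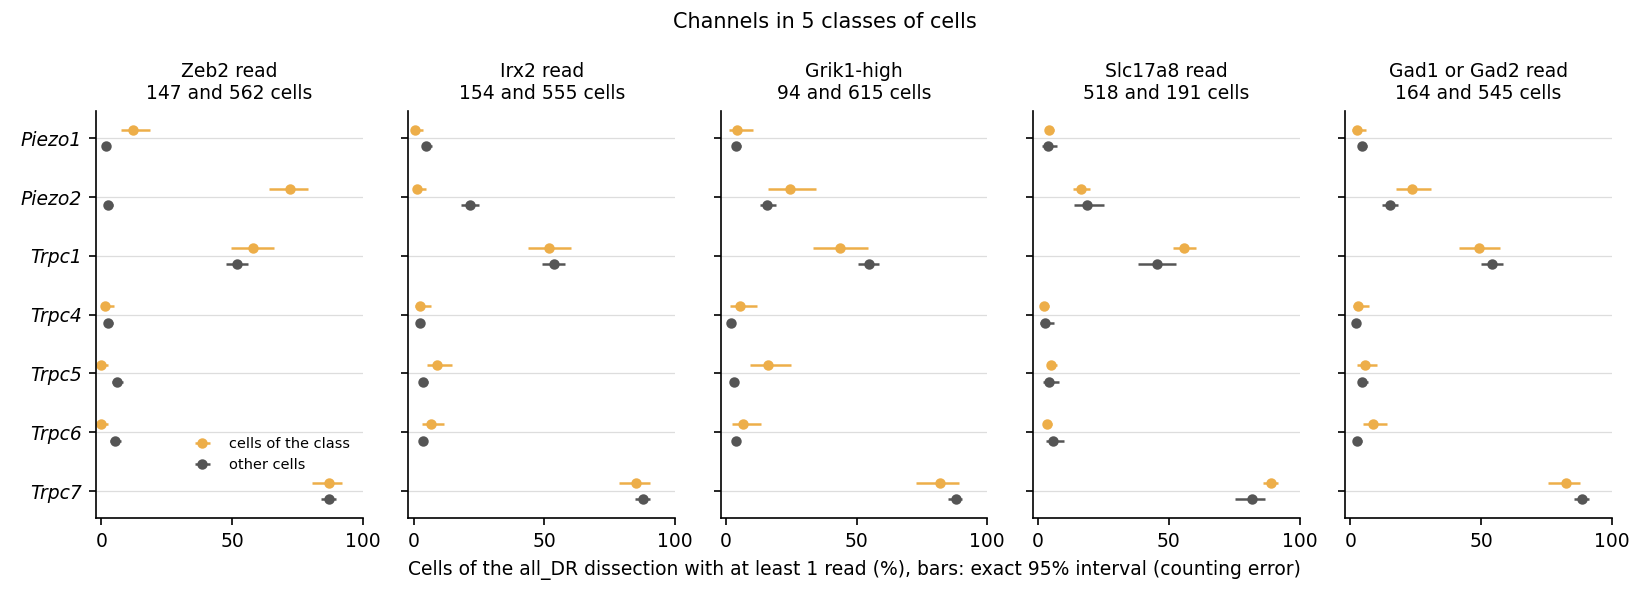
Share of all_DR cells with at least 1 read of each channel (x axis, percent), in cells of a class (yellow) and in the other cells (grey), with exact 95% intervals for counting error. Piezo2 separates Zeb2-positive cells at 72.1% from the others at 2.67%, and Trpc7 lies between 81.7% and 89.2% in every panel.

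Slc17a8 was found in 518 of 709 all_DR cells and 131 of 290 pDR cells, and Gad1 or Gad2 in 164 and 183. None of the 7 members passed a log2 ratio of 1 in any of these 4 comparisons, where between 0.161% and 1.22% of the genes tested did in 1 direction. For Slc17a8 in all_DR these background shares were 0.274% upward and 0.65% downward, and in pDR 0.768% and 0.721%. For Gad1 or Gad2 they were 0.729% and 0.161% in all_DR, and 1.22% and 0.776% in pDR. The member that stood closest to a call in log2 ratio was Trpc6, for Gad1 or Gad2 in all_DR. In pDR it was found in 25 of 183 cells with Gad1 or Gad2 (13.7%, 9.04 to 19.5) and 3 of 107 without (2.80%, 0.582 to 7.98), and the share was higher on 5 of 5 plates. In all_DR it was found in 14 of 164 (8.54%, 4.75 to 13.9) and 15 of 545 (2.75%, 1.55 to 4.50), higher on 8 of 11 plates and lower on 2. The log2 ratios of its mean were 0.43 in pDR, with a higher mean on 4 of 5 plates, and 0.86 in all_DR. In pDR its positive cells had a median of 11.8 CPM with Gad1 or Gad2 and 66.3 CPM in the 3 without. For Slc17a8 the Trpc6 log2 ratio was 0.51 in pDR, with a higher mean on 5 of 5 plates, and -0.05 in all_DR. Its pDR shares were 9.16% with Slc17a8 and 10.1% without, and its all_DR shares 3.47% and 5.76%. Summed astrocyte markers also differed in pDR, with medians of 1482 CPM with Gad1 or Gad2 and 715 CPM without, led by Aldoc. The endothelial genes Ly6c1 (log2 ratio 1.39, 19.1% against 3.74% of cells) and Esam (1.03, 9.84% against 0.935%) were higher there with Gad1 or Gad2. In all_DR, 3 of 7 astrocyte genes were higher in mean, Aqp4 (1.93), Slc1a3 (1.83) and Gja1 (1.48). Of the oligodendrocyte genes Mobp was higher (2.14) and Mag (-1.32) and Mog (-1.07) lower, while Rgs5 of the pericyte list was lower (-1.77). Shares did not all follow these means. Gja1 had a read in 3.66% of cells with Gad1 or Gad2 and 4.59% without, Mobp in 22.6% and 28.8%, and Rgs5 in 2.44% and 1.47%. The higher means of Aqp4, Slc1a3, Gja1 and Mobp were seen on 7, 4, 3 and 4 of 11 plates. The part of these genes in the Trpc6 result was not tested.

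Trpc1 and Trpc7 did not pass the threshold, although their shares differed. In all_DR, Trpc7 was found in 82.3% of cells with Gad1 or Gad2 and 88.6% without, and in 89.2% of Slc17a8-positive cells and 81.7% of the others. Slc17a8-positive cells were the deeper ones, with a median of 897954 reads against 800645. With every cell thinned to 250000 reads and the classes redrawn, the Trpc7 shares with and without Slc17a8 were 87.4% and 80.2%. Those of Trpc1, thinned in the same way, were 45.5% and 37.2%. Trpc1 was found in 56.0% and 45.5% of all_DR cells with and without Slc17a8, with the higher share in Slc17a8-positive cells on 10 of 11 plates, and in pDR in 67.9% and 73.0%, higher on 2 of 5 plates. Piezo2 was found in 16.4% and 18.8% of all_DR cells with and without Slc17a8, with a log2 ratio of -0.40. In pDR it was found in 1 of 131 Slc17a8-positive cells (0.763%) and 9 of 159 others (5.66%), with a lower share on 4 of 5 plates. With Gad1 or Gad2 in all_DR it was found in 23.8% of cells against 15.0%, with a higher share on 8 of 11 plates. Piezo1, Trpc4 and Trpc5 had log2 ratios between -0.58 and 0.24 across the 4 comparisons. Among the pathway genes, Plcb1, a phospholipase C, was higher with Slc17a8 in both dissections (log2 ratios 1.98 and 2.20). With Gad1 or Gad2, Adra1a was higher in all_DR (1.02) and pDR (1.47), and so was Trpm3 (1.16 and 1.26). In pDR cells with Gad1 or Gad2, Itpr3 was higher (1.42) and Itpr2 lower (-1.28). The TRP gene Pkd2l1 was higher with Slc17a8 in all_DR (2.55) and was found in 6.37% of those cells and none of the others.

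Most cells held a small set of members. Of 999 cells, 47 held none (4.70%), 328 held 1, 489 held 2, 115 held 3 and 20 held 4, and no cell held more. Trpc1 with Trpc7 and no other member was the most frequent set, in 389 cells (38.9%, 35.9 to 42.0), followed by Trpc7 alone in 260 (26.0%) and Trpc1 alone in 56 (5.61%). Piezo2 with Trpc1 and Trpc7 was found in 46 cells and Piezo2 with Trpc7 in 40. Counting any other member too, Trpc1 and Trpc7 were together in 50.4% of cells. The Trpc1 share was 58.8% (55.4 to 62.2) in cells with Trpc7 and 54.9% (46.4 to 63.2) in cells without, and these intervals overlap. Thinned to 250000 reads, 38.2% of cells held both.

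Among the scarce members, Trpc5 had a higher share in cells with Trpc4 or Trpc6 than in the others. Of 20 Trpc4-positive cells, 9 held Trpc5 (45.0%, 23.1 to 68.5), against 42 of the 979 others (4.29%, 3.11 to 5.75). Of the 51 Trpc5-positive cells, 2 held Piezo2 (3.92%, 0.478 to 13.5), against 13.6% of the others, and both were pDR cells. Within pDR, Trpc5 was found in 2 of 10 Piezo2-positive cells (20.0%) and 15 of 280 others (5.36%), and within all_DR in 0 of 121, which allows up to 2.48%, and 34 of 588 (5.78%). Trpc1 was found in 35.3% of Trpc5-positive cells (22.4 to 49.9) and 59.5% of the others (56.3 to 62.6). Trpc5 and Trpc6 were together in 11 cells, all in all_DR, where 11 of 29 Trpc6-positive cells held Trpc5 (37.9%, 20.7 to 57.7). In pDR 0 of 28 Trpc6-positive cells held Trpc5, which allows a share of up to 10.7%, and the remaining pDR cells had a Trpc5 share of 6.49%. The difference between the dissections was not tested.

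**Figure D5:**
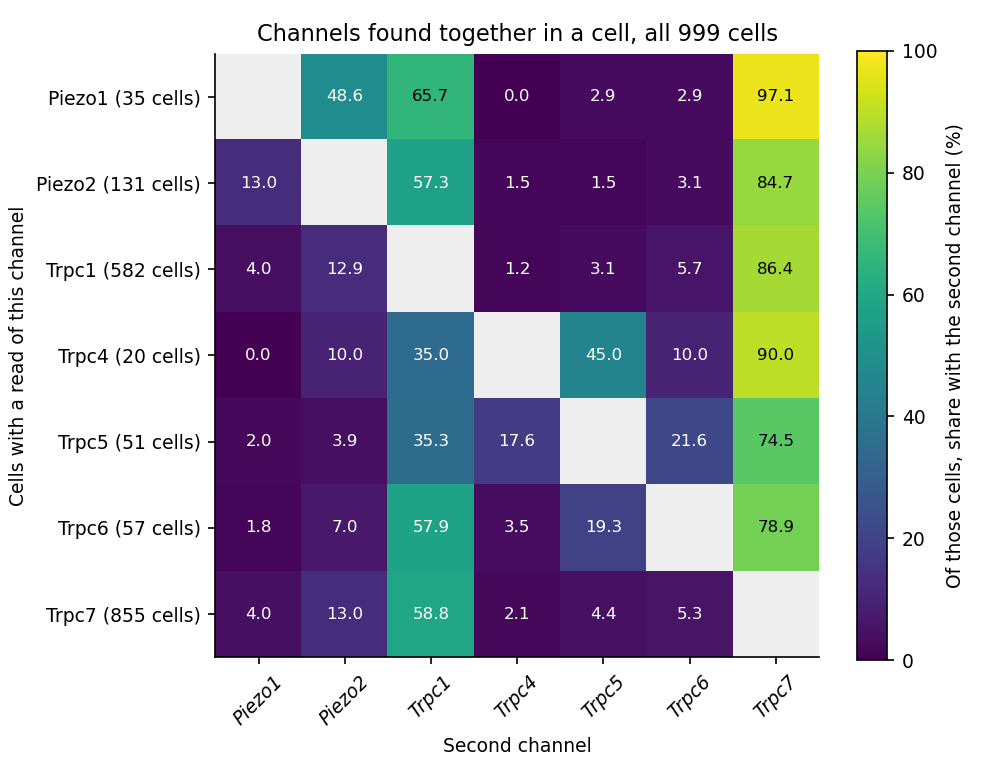
For the cells with a read of each channel (rows, number of cells in brackets), the share that also held the second channel (columns), as percent of those cells. Trpc7 was found in 74.5% to 97.1% of the cells in each row but its own, and 45.0% of Trpc4-positive cells held Trpc5.

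Across all 999 cells, the Pearson correlation of ln(CPM + 1) between members stayed low and is given as a description, without a test, over cells that share plates and depth. It was 0.27 for Trpc4 and Trpc5, 0.24 for Piezo1 and Piezo2, 0.21 for Trpc5 and Trpc6, and -0.03 for Trpc1 and Trpc7. Among 11518 genes with a mean over 2 CPM, those most like Piezo2 were Zeb2 (r = 0.80), Pter (0.79), an enzyme of the phosphotriesterase family, and Kcnh8 (0.79), a potassium channel. Pter was found in 108 of the 131 Piezo2-positive cells and 139 of the 868 others, and Kcnh8 in 96 and 35. The genes most like Trpc5 were Htr7, a serotonin receptor (r = 0.47), Cnr1, the cannabinoid receptor (0.42), and Nmbr (0.38). Htr7 was found in 34 of 51 Trpc5-positive cells (66.7%, 52.1 to 79.2) and 9.49% of the others (7.70 to 11.5), and Cnr1 in 82.4% and 20.7%. For Trpc6 they were Gm45768 (r = 0.31) and Bcl11a (0.30), a transcription factor, which was found in 35 of 57 Trpc6-positive cells (61.4%, 47.6 to 74.0) and 14.5% of the others (12.4 to 17.0). The correlation was above 0 on 12 of 14 plates for Trpc5 with Htr7 and on 14 of 15 for Trpc6 with Bcl11a. No gene reached an r of 0.3 with Piezo1, Trpc1, Trpc4 or Trpc7.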

How the data were processed

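Single tdTomato-positive cells were sorted into plates and made into Smart-seq2 libraries, read as paired ends of polyA RNA. Per the labels and the study's methods, the authors used bcl2fastq 2.19.0.316, STAR 2.6.1a on mm10 (GRCm38) and HTSeq 0.11.2 without strand (versions also in the submitters' processing notes). The deposited table gives CPM, reads scaled to a fixed total of reads assigned to genes, for 53263 genes in 999 cells. Every value above 0 was a whole multiple of the smallest value in its cell (100% within 0.001), so reads were recovered as that multiple. No count test was run, because each dissection is 1 sample. All cells held at least 300 genes and 50000 reads, the study's minimums. Of 1536 labelled cells, 537 were not analysed here.

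Python 3.11.15 (NumPy 2.4.6, SciPy 1.17.1) gave shares, means, log2 ratios of mean CPM + 1 (called past 1) and correlations of ln(CPM + 1). Background shares cover 25522 genes with a read in at least 3 cells. Classes hold cells with at least 1 read of the class gene, and Grik1-high is the highest 10% of cells by Grik1. Coordinates and exon lengths are from GENCODE M21 (GRCm38), and the authors' annotation version was not given in the sources used here. The contrast was tested on simulated data for genes with a mean of at least 2 CPM in all_DR. Piezo1, Trpc4, Trpc5 and Trpc6 had lower means there, so the simulation does not cover them. Alternatives were 5 reads or 10 CPM as minimum, thinning to 250000 reads, pseudocounts of 0.1 and 5 CPM, median-of-ratios scaling, plate-weighted means, other class thresholds and leaving out each plate. The members and gene lists were chosen with earlier results of these data known. Named genes are the 7 members, up to 3 genes per member at r of 0.3 or more, and up to 4 genes past the threshold per list and comparison. Results of 1 listed gene are not reported here.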

Additional observations from a re-analysis of the deposited data

How the results depend on the processing

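The called log2 ratios of Piezo2 (between dissections, for Zeb2 and for Irx2) kept their direction and their side of the threshold under the alternatives run, with 1 exception. Among cells without a Zeb2 read, a comparison added after seeing the data, the Piezo2 log2 ratio of pDR over all_DR was 0.084, in place of -3.14, and 0 members passed the threshold. With a pseudocount of 0.1 CPM the Piezo2 log2 ratios were -4.72 between dissections, 7.23 for Zeb2 and -6.03 for Irx2, and with 5 CPM they were -1.54, 3.38 and -1.84. The smaller pseudocount brings genes with means under 1 CPM past the threshold by construction: 3 members between dissections, 4 for Zeb2, 4 for Irx2, 3 for Grik1-high and 1 each for Gad1 or Gad2 in both dissections and for Slc17a8 in pDR. With it the log2 ratio of Trpc6 was 1.56 between dissections and 1.74 for Gad1 or Gad2 in all_DR, and that of Trpc5 for Grik1-high was 1.78.

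The Grik1-high calls changed under several alternatives. The Trpc4 log2 ratio was 0.35 with a pseudocount of 5 CPM, 0.89 when thinned and 0.52 with the highest 20% of cells, each leaving 0 members called. The Trpc5 log2 ratio was 1.01 with plates weighted equally, 1.63 with the highest 5% of cells and 1.17 without Zeb2-positive cells (none of which held Trpc5), where 2, 3 and 2 members were called. Thinned, the Trpc6 log2 ratio for Gad1 or Gad2 in all_DR was 1.02 (1 member called). Without plates 12 and 13, chosen after seeing the data, that of Trpc6 between dissections was 1.01 (2 members called). The cause of these moves was not tested.

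A higher minimum lowers shares by construction. From 5 reads the Trpc1 share was 49.7% in pDR and 33.0% in all_DR, and from 10 CPM 34.8% and 21.6%. Thinned it was 57.1% and 43.1%. The Trpc7 share in all_DR was 80.4% from 5 reads and 73.8% from 10 CPM. Cells with Trpc1 and Trpc7 both were 29.0% from 5 reads and 38.2% when thinned, cells with none of the 7 were 11.2% from 5 reads, and cells with 3 or more were 7.31% and 10.2%.

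As plates were left out in turn, the Piezo2 share in all_DR ran from 13.7% (without plate 48) to 18.4%, the Trpc1 share in pDR from 64.5% (without plate 12) to 74.7%, and the log2 ratio of Trpc6 between dissections from 0.71 to 1.11 (1 to 2 members called, 2 without plate 13 or 25). For Grik1-high, that of Trpc4 ran from 0.68 to 1.23 and that of Trpc5 from 0.65 to 1.06, past the threshold without plate 57 (0 to 2 members called). For Gad1 or Gad2 in pDR, 0 to 1 members were called, 1 without plate 13.

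No paired analysis was possible because the replicate numbers only name cells in accession order and the 2 dissections share no plate. Cells of 1 dissection come from an unknown number of animals per plate, and shares of scarce members rest on 20 to 57 cells, so intervals are wide. Without molecular tags the intervals cover counting error only.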
